A study of Mus musculus with 18 samples.

Results

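The genes described here are 43 genes of mitosis and the spindle, listed by symbol, in F9 cells given retinoids. A member was taken where a probe set carried its symbol alone, and the probe set of highest mean was used where there were several. Of the 43 genes 42 were measured, out of 19938 genes in the deposited table. Ccnb1, cyclin B1, had no probe set of its own symbol alone and is not described. Top2a had 2 probe sets.

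Cells enter mitosis when cyclin-bound CDK1 becomes active, and PLK1 and the Aurora kinases then build the spindle on which kinetochores hold the chromosomes. The spindle checkpoint delays anaphase until every kinetochore is attached, after which the anaphase-promoting complex with CDC20 frees separase to open the cohesin ring. Most of these genes are transcribed in a wave in G2 and mitosis through MuvB complexes, which act with B-MYB and FOXM1 in cycling cells and with p130 or p107 in resting ones, at a promoter element called CHR that often lies beside CCAAT boxes. F9 is a mouse embryonal carcinoma line whose cells divide fast and slow their growth as retinoic acid turns them into endoderm.

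The cells received ethanol vehicle for 48 h (2 arrays), or all-trans retinoic acid (ATRA, 1 µM), BMS961 (0.1 µM), BMS753 (1 µM) or BMS641 (1 µM) for 2, 6, 24 or 48 h, with 1 array for each agent and time. ATRA activates every retinoic acid receptor (RAR), while BMS961 is an agonist of RARγ, BMS753 of RARα and BMS641 of RARβ. All 18 arrays came from the same line, with no genetic change named. Vehicle was measured at 48 h alone, so arrays at 2, 6 and 24 h also differed from vehicle in their time in culture. The labels do not state separate cultures for the vehicle pair. The p-values therefore measure only the spread between these samples. Part of it is the difference of the vehicle pair, which may be technical. The rest is how the ligands differed in their steps from 2 h to 6 h and from 24 h to 48 h.

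The promoters of the members shared letters that the choice of members did not use. RefSeq promoter windows (GRCm38.p6, from 250 bases before the start of transcription to 50 after it) were given for 34 members, in 37 windows, and were searched on both strands for CHR (TTTGAA) and the CCAAT box (CCAAT). CHR was found in 75.7% of the members' windows and in 17.9% of all 32851 windows. The CCAAT box was found in 78.4% of the members' windows and in 37.4% of all windows, and both motifs together in 67.6% against 6.95%. An E2F site (TTTCCCGC or TTTGGCGC), the element known from genes of DNA replication, was found in 2.7% of the members' windows, in 1.56% of all windows and in 37% of those of a DNA replication list. That replication list had the CCAAT box in 74.1% of its windows, close to the share of the members, and CHR and both motifs in 11.1% each. In the windows of other mitotic genes CHR was found in 46.4%, the CCAAT box in 58.9%, both in 30.4% and the E2F site in 10.7%. A CCAAT box and a CHR can share 1 base and were counted separately, and a match is a description and not a measured binding site.

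The next sequences are the 150 bases before the start for genes on which the results turn, with CHR and CCAAT boxes of either strand in capitals. Cdk1 (chr10:69352913-69353062, minus strand), Espl1 (chr15:102296143-102296292, plus strand) and Cdc20 (chr4:118437344-118437493, minus strand) are shown for a CHR just before the start, at 15, 27 and 18 bases from it. Aurka (chr2:172370571-172370720, minus strand) and Spc25 (chr2:69206214-69206363, minus strand) are shown for their paired CCAAT boxes. These boxes begin 51 and 19 bases before the start in Aurka and 55 and 23 in Spc25. Their CHR lies after the start, at 33 and 25 bases. Pttg1 (chr11:43425982-43426131, minus strand) is shown as 1 of 5 members with neither motif in its window, the others being Mad2l1, Birc5, Nuf2 and Ncaph.
Cdk1: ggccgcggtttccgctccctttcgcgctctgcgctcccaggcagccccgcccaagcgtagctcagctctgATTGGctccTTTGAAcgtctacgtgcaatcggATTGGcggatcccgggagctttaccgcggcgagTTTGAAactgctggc
Espl1: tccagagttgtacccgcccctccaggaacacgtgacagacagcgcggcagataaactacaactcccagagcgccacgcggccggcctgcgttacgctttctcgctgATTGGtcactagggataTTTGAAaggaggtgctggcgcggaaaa
Cdc20: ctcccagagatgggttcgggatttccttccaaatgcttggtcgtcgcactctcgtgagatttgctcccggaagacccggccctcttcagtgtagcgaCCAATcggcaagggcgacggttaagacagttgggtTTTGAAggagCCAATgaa
Aurka: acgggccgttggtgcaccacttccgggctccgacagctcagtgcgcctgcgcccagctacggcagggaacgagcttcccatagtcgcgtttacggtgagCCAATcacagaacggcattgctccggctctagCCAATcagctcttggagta
Spc25: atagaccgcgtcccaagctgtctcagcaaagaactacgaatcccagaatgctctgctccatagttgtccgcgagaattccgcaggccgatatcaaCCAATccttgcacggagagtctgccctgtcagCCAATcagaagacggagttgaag
Pttg1: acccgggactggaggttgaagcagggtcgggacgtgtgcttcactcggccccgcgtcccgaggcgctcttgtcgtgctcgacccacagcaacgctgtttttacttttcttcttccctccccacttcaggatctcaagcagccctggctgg
Aurka and Spc25 carried both motifs in the same order, and their levels went opposite ways under ATRA. Whether the Spc25 probe set takes up RNA of its neighbour Nostrin was not tested. Pttg1, with neither motif in its window, was lower late than early under ATRA. Levels were not compared by motif over the members, so whether motif and change go together was not tested.

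Values are log2 levels by RMA, and differences are log2 differences. Because a single array stood for each agent and time, the 2 h and 6 h arrays of a ligand were combined as early and the 24 h and 48 h arrays as late. These pairs are different times and not replicates. A limma fit to all genes and arrays gave changes ± SE, and a gene was called at an adjusted p under 0.05. The vehicle arrays differed from each other by a median of 0.23 over the members and 0.23 over all genes (absolute log2 difference), and 4 of 42 members were at least 1.5-fold apart, where 14.4% of all genes were. Over 12146 probe sets without a listed gene, vehicle replicate 1 deviated in the same direction as the 4 ATRA arrays (mean correlation 0.32) and vehicle replicate 2 did not (−0.26). The labels name no batch. With the 12 BMS arrays the mean correlation was −0.19 for replicate 1 and 0.04 for replicate 2, so replicate 2 went clearly with neither group. The ATRA arrays and vehicle replicate 1 may thus form an array set apart from the others. Comparisons of ATRA with BMS compounds would cross it, and ligand and array set cannot be told apart there. Changes within ATRA from early to late do not cross it. In bulk RNA, fewer mitotic cells and less mitotic RNA per cell cannot be told apart either.

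Under ATRA most of the mitotic genes were at their lowest at 48 h. On the ATRA 48 h array the median member lay 0.33 below vehicle replicate 1 (log2 difference), with 36 of 42 members below it. It lay 0.48 below vehicle replicate 2, with 40 of 42 below, and 0.36 below BMS641 at 48 h, with 39 of 42 below. Over all genes the same 3 medians were −0.07, −0.04 and −0.10. At 24 h of ATRA the member median was 0.04 against vehicle replicate 1 and −0.17 against replicate 2, and at 2 h it was 0.11 and −0.08, so at these times the array lay between the vehicles. The vehicle pair differed by −0.18 in the member median (replicate 1 minus replicate 2). Members had their lowest level of all 18 arrays at ATRA 48 h in 26 of 42 cases (61.9%), while 19% of all genes had theirs there.

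**Figure D1:**
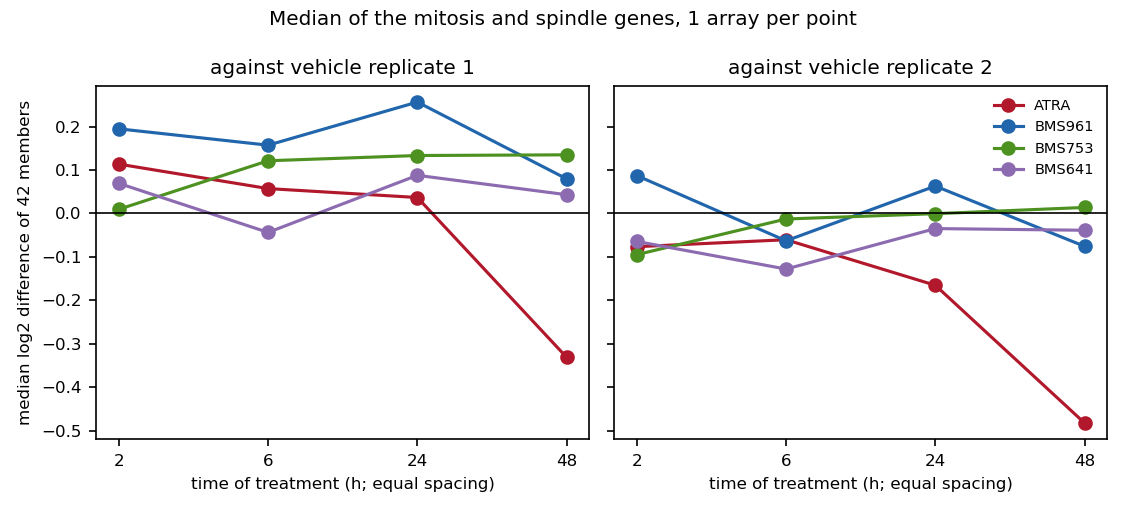
Median log2 difference of the 42 members from vehicle replicate 1 (left) and vehicle replicate 2 (right) against time of treatment in hours at equal spacing, with 1 array per point and a colour per ligand. ATRA at 48 h lies at −0.33 and −0.48, and the BMS compounds at 48 h lie between −0.08 and 0.13.

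Under the 3 BMS compounds the mitotic median lay close to that of both vehicle arrays at 48 h. BMS961, given at 0.1 µM, had a member median at 48 h of 0.08 and −0.08 against the 2 vehicle arrays. BMS753 had 0.13 and 0.01, and BMS641 had 0.04 and −0.04. From 24 h to 48 h the median member changed by −0.36 under ATRA (34 of 42 below 0), by −0.10 under BMS961 (32 of 42), by 0.01 under BMS753 (18 of 42) and by −0.01 under BMS641 (24 of 42). In 31 of 42 members the ATRA step lay below the steps of all 3 BMS compounds, a pattern that 43.6% of all genes shared. It lay above all 3 in 5 members (Spc25, Pttg1, Kif23, Kif20a and Bub3), against 28.5% of all genes. The ATRA step was lowest in Kif11 at −0.88 (Eg5, the motor that pushes the spindle poles apart), where the BMS steps ran from −0.27 to 0.07. Ndc80 and Spc24, of the complex that grips microtubules at the kinetochore, stepped by −0.84 each. Ndc80 stepped down from its highest level of all 18 arrays, 9.52 at ATRA 24 h, to 8.68, which lay just below BMS641 at 48 h (8.74) and the lower vehicle array (8.76). Spc24 ended at 7.91, below all other arrays. Members had their highest level of all 18 arrays at ATRA 24 h in 7 cases, where 8.6% of all genes had theirs there. Spc25, of that same complex, stepped up by 0.90.

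**Figure D2:**
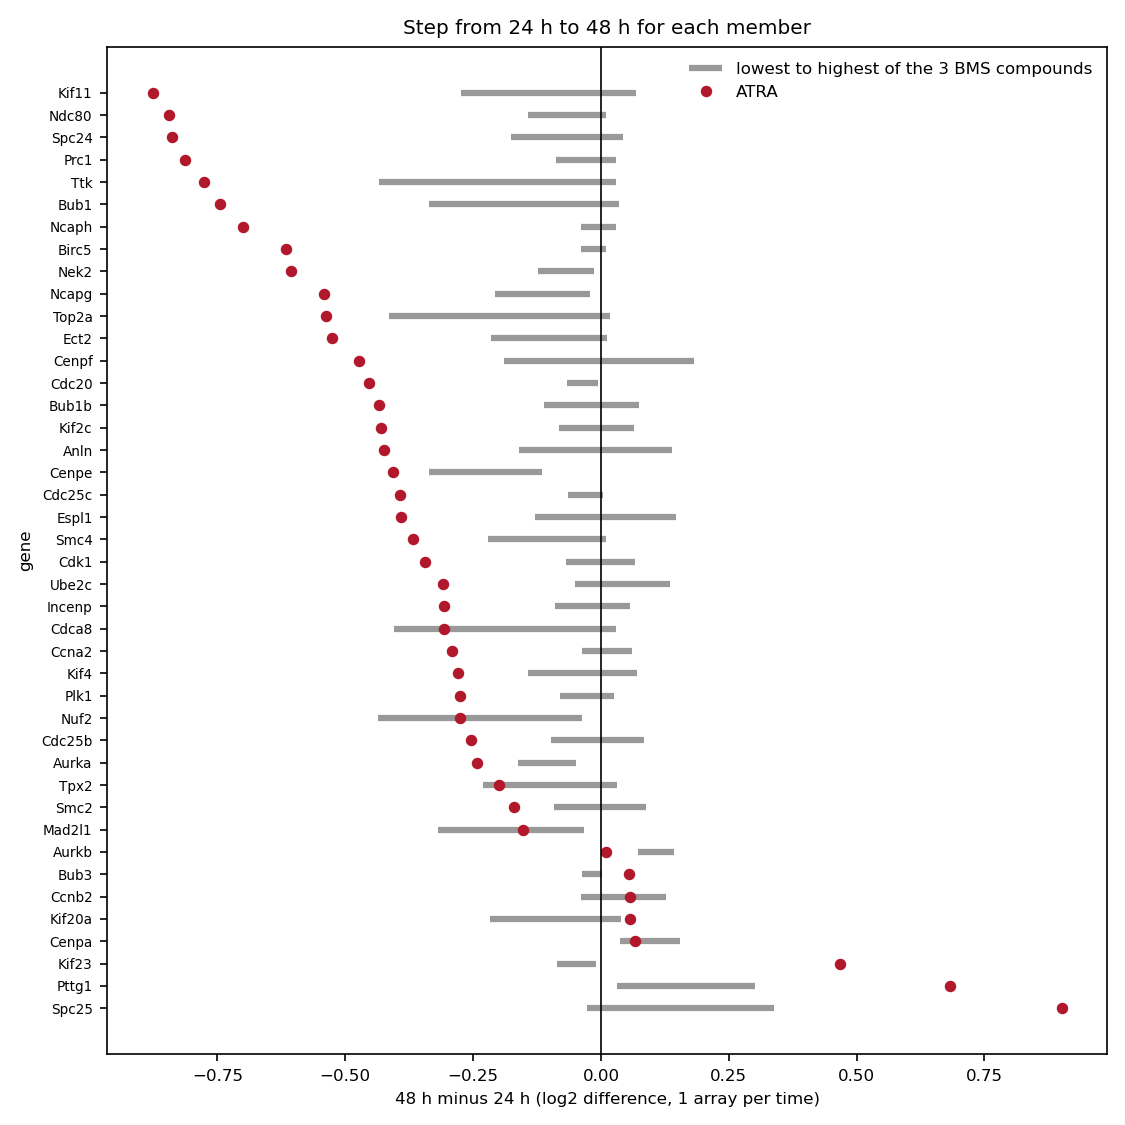
Log2 difference between the 48 h and 24 h arrays for each of the 42 members, with ATRA as red points and a grey bar from the lowest to the highest of the 3 BMS compounds. For 31 members the ATRA point lies left of the bar, and for Spc25, Pttg1, Kif23, Kif20a and Bub3 it lies right of it.

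The change within ATRA from early to late gave 5 called members, and all 5 fell: Espl1, Pttg1, Aurka, Bub1b and Cdk1. They are 11.9% of the members, where 2.32% of all genes fell and 4.95% rose at the same threshold, and no member rose. The median change of the members was −0.23, with 35 of 42 below 0, and that of all genes −0.04. Each of these genes was tested in the one limma fit and adjusted over all genes. The count changed when a single array was left out, falling without ATRA 2 h, 6 h or 48 h and growing without ATRA 24 h. Leaving out an array left its group with 1 array, which was then assumed to vary like the other groups. The share of all genes called in such fits is not given, so these shifts are not read as particular to the members. With every array centred on its median, Aurka and Cdk1 were no longer called, although their changes became −0.56 and −0.58, since centring moved every gene by −0.08 in this comparison.

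**Figure D3:**
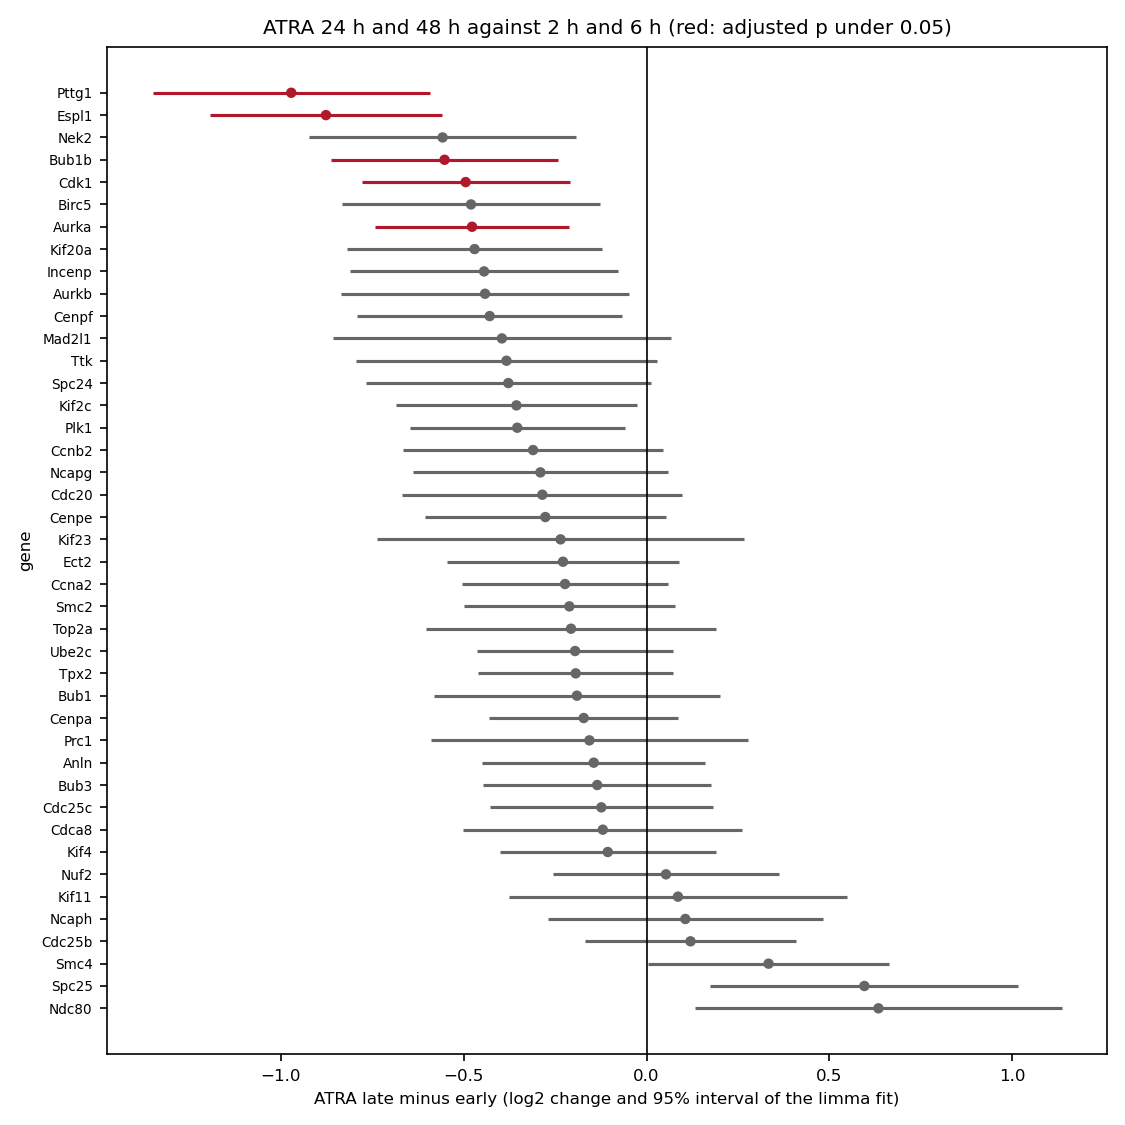
Log2 change from early (2 h and 6 h) to late (24 h and 48 h) under ATRA with its 95% interval in the limma fit, for each of the 42 members, red where the adjusted p was under 0.05. The red points are Pttg1 (−0.97), Espl1 (−0.88), Bub1b (−0.55), Cdk1 (−0.49) and Aurka (−0.48).

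Late ATRA against vehicle gave 2 called members, which both fell: Aurka by 0.55 ± 0.12 (adjusted p = 0.0281) and Espl1 by 0.64 ± 0.14 (adjusted p = 0.0317). No member rose, where 1.4% of all genes fell and 3.31% rose. The member median was −0.22 and that of all genes −0.02. Neither call held without vehicle replicate 2 or without ATRA 48 h. More members were called without vehicle replicate 1 or without ATRA 24 h. The share of all genes called in these fits is not given. With the array set as a block, ATRA was set against vehicle replicate 1 and no member was called.

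Late ATRA against late BMS641, at the same dose and times, gave the most calls. Of the 42 members 12 fell and 2 rose, where 6.98% of all genes fell and 7.81% rose, and the member median was −0.27 against −0.04 for all genes. The 12 were Espl1, Mad2l1, Bub1b, Aurkb, Incenp, Kif20a, Cdc20, Aurka, Pttg1, Ccnb2, Plk1 and Bub3, with changes from −0.96 to −0.50. The 2 that rose were Spc25 (0.63 ± 0.19, adjusted p = 0.0475) and Cdc25b (0.44 ± 0.13, adjusted p = 0.0461). Centring each array on its median gave 17 members that fell and 0 that rose, where 12.4% of all genes fell and 5.46% rose. It moved every gene by −0.16 here, so that the median of all genes was −0.20. With the array set as a block no member was called, and the changes of Aurkb (0.013) and Ccnb2 (0.0043) turned positive. That block was estimated only from the difference of the 2 vehicle arrays. It subtracted this single difference from every change, so it cannot show whether an array set made the changes. Most or all calls of the main fit were lost when BMS641 48 h, BMS641 24 h or ATRA 48 h was left out. The share of all genes called in these fits is not given.

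The difference between ATRA and BMS641 in the change from early to late, which does not use the vehicle arrays, had a member median of −0.31 against 0.0034 for all genes, with 37 of 42 members below 0. By limma no member was called, where 0.301% of all genes were, and 10 of 42 (23.8%) had an unadjusted p under 0.05, where 12.6% of all genes did. Espl1 came nearest, at −1.01 ± 0.20 (adjusted p = 0.0691), followed by Pttg1 at −1.07 ± 0.24 (adjusted p = 0.106). That the fall of the members was particular to ATRA was thus not shown by this fit for any one gene. Without ATRA 24 h some members were called, with no share of all genes to set beside them.

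**Figure D4:**
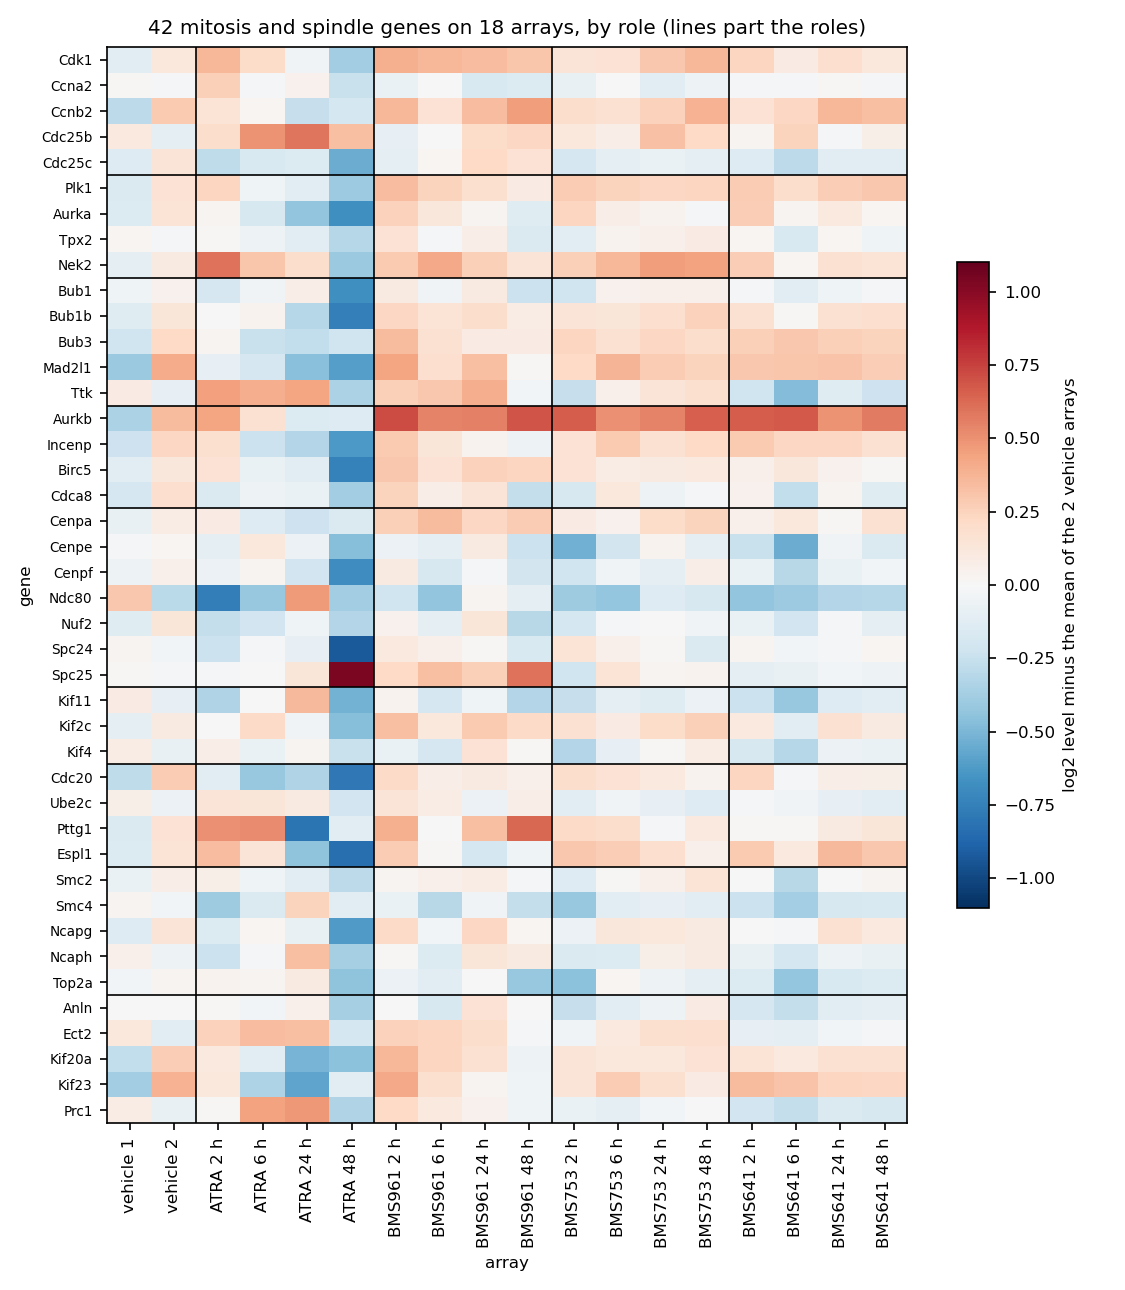
Log2 level minus the mean of the 2 vehicle arrays for the 42 members (rows, by role, with lines between roles) on the 18 arrays (columns), blue below and red above vehicle. The ATRA 48 h column is blue for most members and dark red for Spc25 (10.43 against a vehicle mean of 9.39), while Aurkb is red on all 12 BMS arrays.

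Cyclins, CDK1 and the CDC25 phosphatases start mitosis. Cdk1, the kinase itself, had log2 levels of 10.51, 10.35, 10.11 and 9.76 at 2, 6, 24 and 48 h of ATRA. It stood at 10.03 and 10.26 in vehicle and at 10.23, 10.41 and 10.53 (lowest, median and highest) on the BMS arrays. Its level thus went down at each later time under ATRA, and only the 48 h array lay below both vehicle arrays. The change from early to late was −0.49 ± 0.13 (adjusted p = 0.0417 by limma), and under BMS961, BMS753 and BMS641 it was −0.06, 0.18 and −0.01. Ccnb2, cyclin B2, changed by −0.57 ± 0.16 against late BMS641 (adjusted p = 0.0369) and by −0.22 against vehicle. Ccna2, cyclin A2, which also serves S phase, had changes of −0.10 against vehicle and −0.22 from early to late. Cdc25b, a phosphatase that removes the inhibitory phosphates of CDK1, stood apart in the other direction, with 7.44 at ATRA 48 h and 7.22 and 7.00 in vehicle.

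Mitotic kinases and the spindle factor TPX2 were all below 0 in late ATRA against early ATRA, vehicle and late BMS641. Aurka, the Aurora kinase of the centrosome and spindle poles, had levels of 10.13, 9.93, 9.67 and 9.43 over the ATRA times, 9.96 and 10.25 in vehicle, and 9.97, 10.16 and 10.38 (lowest, median, highest) on the BMS arrays. Both late ATRA arrays lay below every other array of the study. Its change from early to late was −0.48 ± 0.12 (adjusted p = 0.0370 by limma), where BMS961 had −0.24, BMS753 −0.14 and BMS641 −0.09. Plk1, the polo kinase that matures centrosomes, went from 10.61 and 10.32 to 10.24 and 9.97 under ATRA, with 10.21 and 10.53 in vehicle and 10.46, 10.61 and 10.71 on the BMS arrays. The 48 h array lay below all others, while the 24 h array lay between the vehicles. Its change was −0.54 ± 0.13 against late BMS641 (adjusted p = 0.0215) and −0.26 against vehicle (adjusted p = 0.322). Nek2, a kinase that parts the centrosomes, had the largest change of the group from early to late at −0.56 (adjusted p = 0.0679), and Tpx2, which brings Aurora A to the spindle, had the smallest at −0.19.

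Spindle checkpoint genes had a median of −0.38 from early to late, with all 5 below 0 and 1 called. Bub1b, which encodes the checkpoint inhibitor BubR1, had levels of 10.81, 10.85, 10.49 and 10.06 under ATRA. Vehicle stood at 10.68 and 10.94, and the BMS arrays at 10.82, 10.98 and 11.06. The late ATRA arrays lay below all others, and the early ones lay between the vehicle arrays. From early to late Bub1b changed by −0.55 ± 0.14 (adjusted p = 0.0383 by limma), against −0.05, 0.08 and 0.09 for BMS961, BMS753 and BMS641. Mad2l1, the MAD2 protein that is loaded onto CDC20, had 10.30, 10.21, 9.94 and 9.78 under ATRA, 9.98 and 10.80 in vehicle, and 10.40, 10.68 and 10.83 on the BMS arrays. The vehicle arrays were 0.82 apart for it, the widest gap of any member, and all 4 ATRA arrays lay below all BMS arrays. Its change against late BMS641 was −0.83 ± 0.21 (adjusted p = 0.0238), but against vehicle −0.53 (adjusted p = 0.180). Bub1, the kinase that seeds the checkpoint at kinetochores, was 10.96 at ATRA 24 h and 10.21 at 48 h, a step of −0.75, where the lowest BMS step was −0.34. Ttk, the MPS1 kinase that starts the signal, had a change of 0.04 in late ATRA against vehicle, and Bub3 one of −0.24. From 24 h to 48 h of ATRA Ttk stepped by −0.78, where its lowest BMS step was −0.43. It ended at 9.49, with 9.92 and 9.75 in vehicle and 9.36 on its lowest BMS array.

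The chromosomal passenger complex corrects wrong attachments and later marks the cleavage plane. All 4 members measured were below 0 in late ATRA against early ATRA, vehicle and late BMS641, and none was called within ATRA. Birc5, survivin, had levels of 8.95, 8.71, 8.66 and 8.04 over the ATRA times, 8.66 and 8.91 in vehicle, and 8.80, 8.90 and 9.08 on the BMS arrays. The 24 h array equalled the lower vehicle array to 2 decimals, and the 48 h array lay below all others. Its change from early to late was −0.48 ± 0.16 (adjusted p = 0.0999 by limma). Incenp, the scaffold of the complex, had 9.22, 8.80, 8.72 and 8.41 under ATRA, 8.82 and 9.27 in vehicle, and 8.99, 9.24 and 9.33 on the BMS arrays. ATRA from 6 h on lay below all BMS arrays and, by little at first, below both vehicles. Against late BMS641 Incenp changed by −0.67 ± 0.17 (adjusted p = 0.0217). Aurkb, the Aurora kinase of the complex, had 8.99 at 24 h and 9.0 at 48 h of ATRA, against 8.79 and 9.49 in vehicle. Its 12 BMS arrays lay from 9.64 to 9.86, above both vehicles and all ATRA arrays, and its change against vehicle under late ATRA was −0.14 (adjusted p = 0.739).

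Centromere and kinetochore genes differed most among themselves. From early to late under ATRA they ran from −0.43 in Cenpf, a large protein of the outer kinetochore, to 0.63 in Ndc80, and none of the 7 was called. Spc24 stood at 8.75 at ATRA 24 h and 7.91 at 48 h, with 8.87 and 8.80 in vehicle and 8.67 as its lowest BMS array. Cenpe, the kinetochore motor, had −0.28 from early to late, Cenpa, the centromeric histone, −0.17, and Nuf2, the partner of NDC80, 0.05. Spc25 went the other way. Its levels were 9.37, 9.39, 9.53 and 10.43 under ATRA and 9.61, 9.72, 9.65 and 9.99 under BMS961, with 9.40 and 9.38 in vehicle. The 48 h arrays of ATRA and BMS961 were its 2 highest, and the other 16 arrays lay from 9.17 to 9.72. Its neighbour Nostrin in RefSeq's gene order, a gene of nitric oxide synthase trafficking, stood at 6.48 and 5.27 on the same 2 arrays and from 3.59 to 3.96 on the other 16, while its other neighbour G6pc2 lay from 3.47 to 4.03 on all arrays. Whether the Spc25 probe set takes up RNA of its neighbour was not tested.

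Anaphase onset had the largest falls of the 9 roles, with a median change of −0.58 from early to late. Espl1 encodes separase, the protease that cuts cohesin. Its levels were 9.06, 8.86, 8.28 and 7.89 at the 4 ATRA times, 8.57 and 8.87 in vehicle, and 8.53, 8.95 and 9.08 on the BMS arrays. Both late ATRA arrays lay below all others. From early to late it changed by −0.88 ± 0.14 (adjusted p = 0.00778 by limma), and by −0.27, −0.17 and 0.13 under BMS961, BMS753 and BMS641.

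Pttg1 encodes securin, the inhibitor that holds separase until anaphase, and its time course had another shape. Under ATRA it stood at 7.99, 8.0, 6.68 and 7.36, with 7.33 and 7.64 in vehicle and 7.48, 7.61 and 8.12 on the BMS arrays. The 24 h array was the lowest of all, and the 48 h array lay back between the vehicles. From early to late it changed by −0.97 ± 0.17 (adjusted p = 0.00985 by limma). The early arrays were themselves higher than vehicle by 0.51 (adjusted p = 0.267). Cdc20, the activator that brings the anaphase-promoting complex to its first targets, stood at 9.55 at 24 h and 9.10 at 48 h of ATRA. Vehicle gave it 9.60 and 10.16, and its change against late BMS641 was −0.63 ± 0.17 (adjusted p = 0.0337). Ube2c, the ubiquitin-conjugating enzyme of that complex, had −0.05 against vehicle and −0.20 from early to late.

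**Figure D5:**
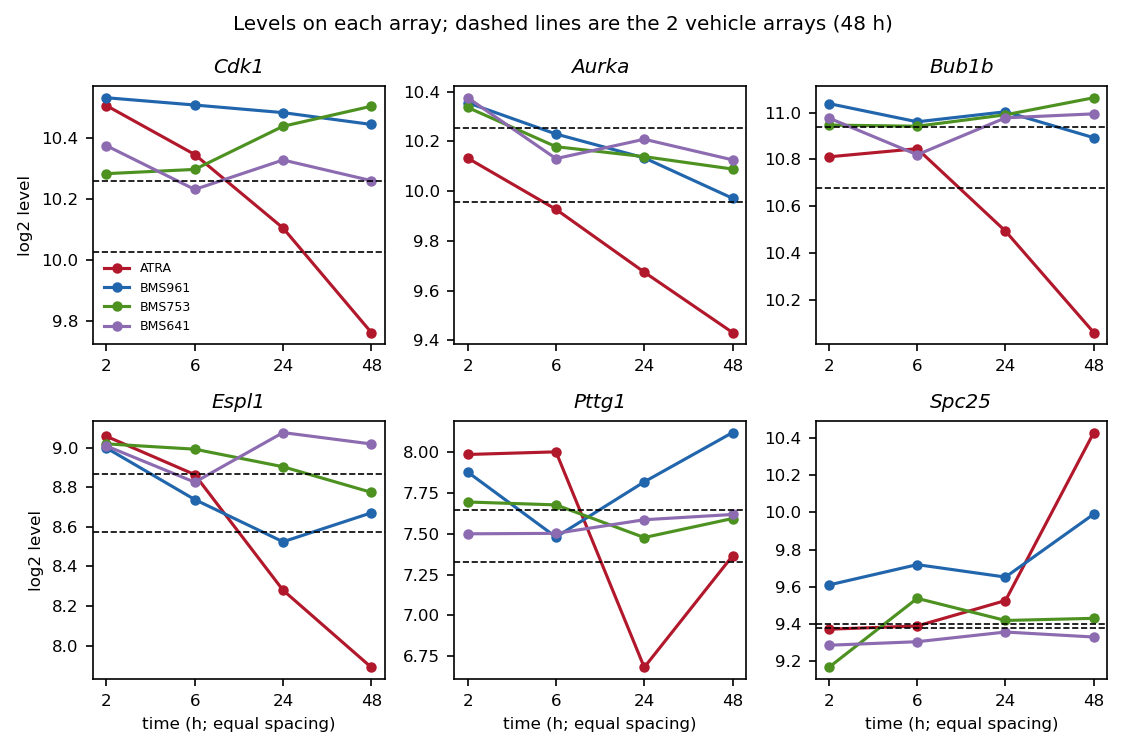
Log2 levels of Cdk1, Aurka, Bub1b, Espl1, Pttg1 and Spc25 on each array against time in hours at equal spacing, with a colour per ligand, and the 2 vehicle arrays at 48 h as dashed lines. Cdk1, Aurka, Bub1b and Espl1 are lowest at 48 h of ATRA, Pttg1 is lowest at 24 h, and Spc25 is highest at 48 h of ATRA.

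Spindle motors, condensin and cytokinesis genes had no called member within ATRA or against vehicle. Among the motors, Kif2c, which shortens microtubules to free wrong attachments, had −0.36 from early to late, Kif4 had −0.11 and Kif11 0.09. Condensin packs chromosomes. Its genes ran from −0.29 in Ncapg to 0.33 in Smc4. Top2a, topoisomerase II, which untangles sister DNA, had 11.33, 11.32, 11.39 and 10.85 under ATRA, 11.26 and 11.32 in vehicle, and 10.84, 11.16 and 11.32 on the BMS arrays. ATRA 48 h was low for Top2a, but single BMS arrays reached the same level, and its change from early to late was −0.21 ± 0.18 (adjusted p = 0.599 by limma). In cytokinesis, Kif20a, the motor that carries the passenger complex to the midzone, had 9.82, 9.59, 9.21 and 9.27 under ATRA, 9.45 and 9.99 in vehicle, and 9.67, 9.87 and 10.09 on the BMS arrays. Both late ATRA arrays lay below all others, and the change against late BMS641 was −0.65 ± 0.16 (adjusted p = 0.0198). The other 4 ran from −0.24 in Kif23, the midzone motor, to −0.14 in Anln, the contractile ring protein anillin, with Ect2 and Prc1 between them. Ccna2, Aurka, Cdc20, Ncapg, Anln, Kif20a and Prc1 overlap another coding gene in RefSeq, and whether their probe sets read it was not tested.

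At single times a gene was counted where it lay at least 1.5-fold beyond both vehicle arrays, with no test. At ATRA 48 h 6 members lay lower (14.3%, against 2.17% of all genes), namely Bub1, Bub1b, Birc5, Cenpf, Spc24 and Espl1, and Spc25 alone lay higher (7.15% of all genes). Against vehicle replicate 1 alone Ndc80 (−0.67) and Kif11 (−0.61) lay lower besides the 6, and against replicate 2 alone the number lower was 13. The shares of all genes against a single vehicle array are not given, so these counts are not read against them. At 24 h Pttg1 alone lay lower (1.06%) and none higher (1.93%). At 6 h none lay lower (0.968%) or higher (1.48%), and at 2 h none lay lower (1.23%) or higher (1.39%).

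Against BMS641 at the same time, 14 members lay at least 1.5-fold lower at ATRA 48 h (33.3%, against 8.31% of all genes) and Spc25 alone lay higher (11.5%). The 14 were Plk1, Aurka, Bub1, Bub1b, Mad2l1, Aurkb, Incenp, Birc5, Cenpf, Spc24, Cdc20, Espl1, Ncapg and Kif20a. At 24 h 7 lay lower (8.6% of all genes) and 3 higher (7.92%), the latter Cdc25b, Ndc80 and Prc1. At 6 h Kif23 lay lower (3.62%) and Ttk, Cenpe and Prc1 higher (4.46%). At 2 h none lay lower (4.18%) and Ttk lay higher (3.14%).

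For the BMS compounds 1 member lay 1.5-fold from both vehicle arrays at any time, and that was Spc25, higher at 48 h of BMS961, where 4.28% of all genes lay beyond in either direction. At 2, 6 and 24 h of BMS961 no member did, against 0.396%, 0.818% and 2.04% of all genes. For BMS753 none did at 2, 6, 24 or 48 h, against 0.662%, 0.226%, 0.863% and 1.54%. For BMS641 none did at those times, against 0.181%, 0.577%, 0.125% and 0.186%. Set beside BMS641, BMS961 had Ttk beyond 1.5-fold at 6 h (1.63% of all genes) and Spc25 at 48 h (7.73%), and none at 2 h (1.65%) or 24 h (4.67%), at a dose that was not matched. BMS753 had none at 2, 6, 24 or 48 h, against 1.57%, 2.55%, 1.71% and 3.2% of all genes.

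No member was called by limma for a BMS compound. Late against vehicle, 1.26% of all genes were called for BMS961, 0.186% for BMS753 and 0% for BMS641, and 5, 3 and 2 members had an unadjusted p under 0.05 (11.9%, 7.14% and 4.76%), near the 11.6%, 8.73% and 4.59% of all genes that did. Early against vehicle, the shares of all genes were 0.0401%, 0% and 0%, and the members with an unadjusted p under 0.05 were 4, 2 and 2 (9.52%, 4.76% and 4.76%, against 7.03%, 5.59% and 7.53% of all genes). Without vehicle replicate 2 some members were called in each of these 6 comparisons, and all of those members rose. No share of all genes is given beside them. From early to late 0.767% of all genes were called for BMS961, 0.00502% for BMS753 and 0% for BMS641, and 0, 1 and 0 members had an unadjusted p under 0.05, where 13.1%, 7.08% and 1.96% of all genes did. Early ATRA called 1.25% of all genes against vehicle and 1.6% against early BMS641, with 0 members called. At an unadjusted p under 0.05 were 5 and 6 members (11.9% and 14.3%), near the 10.0% and 14.2% of all genes. Without vehicle replicate 2 a member was called against vehicle, again with no share of all genes beside it.

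BMS753 and BMS641, agonists of RARα and RARβ at the same dose, were compared late, early and in their change, and by limma called 0% of all genes in each, with 0 members at an unadjusted p under 0.05, where 4.06%, 1.2% and 1.55% of all genes were. Late BMS753 minus late BMS641 ran over the members from −0.21 in Espl1 to 0.34 in Ttk. The 95% intervals reached from −0.60 to 0.75, so they hold differences past 1.5-fold in single genes. The steps common to all ligands, from 2 h to 6 h and from 24 h to 48 h, called 0% of all genes each, and 0 and 5 members (11.9%) had an unadjusted p under 0.05, where 1.66% and 7.44% of all genes did.

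Other genes of the cell cycle were read from lists on the same fit, where 2.32% of all genes fell and 4.95% rose from early to late under ATRA. Of 56 other mitotic genes 8 fell and none rose from early to late under ATRA, with a median of −0.19. They were Ncapd2 (−0.68), Pbk (−0.78), Pimreg (−0.72), Fbxo5 (−0.56), Melk (−0.64), Mki67 (−0.65), Trip13 (−0.50) and Kif14 (−0.73). Mki67 encodes the proliferation antigen Ki-67. In late ATRA against vehicle, where 1.4% of all genes fell, Fbxo5, an inhibitor of the anaphase-promoting complex, fell by 0.60. Cdca5, which protects cohesion, fell by 0.73. Pimreg rose by 0.95 in early ATRA, and Pimreg (1.01) and the kinase gene Pbk (0.70) rose in late BMS961, each against vehicle. Of all genes 0.853% and 0.818% rose in these 2 comparisons. Among 16 genes of the anaphase-promoting complex, the ubiquitin ligase that ends mitosis, none was called, the median was −0.10, and 3 (18.8%) had an unadjusted p under 0.05, where 21.3% of all genes did. DNA replication genes were further down, with a median of −0.40 over 32 genes, of which 5 fell and none rose. Ccne1, cyclin E1, changed by −1.39 ± 0.21 and Uhrf1, which keeps DNA methylation at forks, by −1.06 ± 0.18, with Cdc6, Mcm10 and Rrm2 beside them. Uhrf1 (−0.91) and Mcm10 (−0.74) were also called in late ATRA against vehicle.

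Among 23 regulators of mitotic transcription 5 fell from early to late under ATRA (E2f2, E2f3, E2f4, E2f8 and Tfdp1). Rb1, the retinoblastoma gene, rose by 1.00 ± 0.18 (adjusted p = 0.00939 by limma). In this comparison 2.32% of all genes fell and 4.95% rose. E2f4 also fell from early to late under BMS961, by 0.59, where 0.266% of all genes fell. Foxm1, which drives the G2 wave, changed by 0.07 ± 0.15, and Mybl2, B-MYB, by −0.13 ± 0.29, so neither was called. The vehicle arrays lay 11.75 and 10.56 in Mybl2, the first above all others. Of 6 CDK inhibitors 3 rose: Cdkn1b (p27) by 0.78 ± 0.18, Cdkn2a by 0.67 ± 0.17 and Cdkn2c (p18) by 0.61 ± 0.14, where 4.95% of all genes rose. In late ATRA against vehicle none of the 6 was called (lowest adjusted p = 0.120 by limma), 2 had an unadjusted p under 0.05 and the median was 0.27, while in early ATRA the median lay at −0.23 against vehicle. Cdkn1a was not measured by a probe set of its own symbol. The ATRA levels of Cdkn1b were 8.56, 9.13, 9.62 and 9.63, against 9.36 and 8.89 in vehicle. Cdkn2a had 5.66, 5.51, 5.86 and 6.64 against 6.03 and 5.76, and Cdkn2c had 4.49, 4.38, 5.08 and 5.01 against 4.79 and 4.45. The median of all genes lay from 5.94 to 6.07 on the ATRA arrays. Cdkn2c was thus dimmer than that at every ATRA time, and Cdkn2a at all but 48 h.

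Markers of the cells moved on the same arrays. At ATRA 48 h the median of 12 primitive and parietal endoderm markers lay 2.11 and 2.86 above the 2 vehicle arrays, and that of 10 embryonal carcinoma markers lay at −0.72 against each. BMS961 at 48 h, where the mitotic median was 0.08 and −0.08, had 0.96 and 1.92 for the endoderm markers and −0.54 and −0.36 for the embryonal carcinoma markers. Late ATRA against vehicle called Utf1, Zfp42, Fgf4, Tdgf1 and Sox2 lower and Gata6, Gata4 and Sox7 higher. In that comparison 1.4% of all genes fell and 3.31% rose. Sox2 was already at 10.74 at 2 h of ATRA, below its 10.97 at 48 h. Nanog, Dppa5a and Sall4 lay between the vehicle arrays at ATRA 48 h, and the endoderm marker Thbd lay above neither. Gata6, an endoderm regulator, stood at 11.30 at ATRA 48 h and 10.93 at BMS961 48 h, with 7.08 and 6.03 in vehicle. Pou5f1 (OCT4), 1 of the 10 embryonal carcinoma markers, was high on all arrays, with 12.20 and 12.08 in vehicle and 11.80 at ATRA 48 h. Of 8 fibroblast markers the median was −0.25 and 0.11 against the vehicles at ATRA 48 h. Pdgfra of that list stood at 10.04 at ATRA 48 h and 9.98 at BMS961 48 h, against 6.24 and 4.92 in vehicle. At ATRA 48 h Col3a1, Thy1 and Lum lay below both vehicles, Twist2 and Dcn above both, and Col1a1 and Col1a2 between. In late ATRA against vehicle 3 of the 8 (37.5%) had an unadjusted p under 0.05 by limma, where 19.8% of all genes did. The part of these marker changes in the mitotic genes was not tested.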

How the data were processed

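The 18 arrays were Affymetrix whole-transcript arrays, hybridised with F9 RNA. Deposited values are log2 levels per probe set, made by the authors with RMA in Affymetrix Expression Console 1.1, per the submitters' processing notes. They were used as deposited, so the number of arrays limits the precision. Of 35556 probe sets 21789 had 1 gene symbol, giving 19938 genes, with no filter on dim ones. Groups follow the agent and time that the labels give.

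A model with 9 group means (vehicle, and early and late for each ligand) was fitted in limma 3.58.1 (R 4.3.3). It held the steps between 2 and 6 h and between 24 and 48 h common to all ligands. The residual degrees of freedom were 7, with 4.55 added by eBayes. Adjusted p-values are Benjamini-Hochberg over all genes within a comparison. The fit was tested on simulated data. BMS961 was given at another dose and was not tested against BMS641. Other tables and figures used pandas 2.3.3 and matplotlib 3.10.9 in Python 3.11.15, with numpy 2.4.6.

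The members and lists were chosen with earlier results of these data known. Levels on each ATRA and vehicle array, with the lowest, median and highest of the 12 BMS arrays, are given for the 8 members with the smallest adjusted p and for Cdk1, Birc5 and Top2a, and other members by role. Genes of other lists called within ATRA or against vehicle were named, with Foxm1, Mybl2, Cdkn1b, Pou5f1 and Gata6. Spc25, Cdc25b, Spc24 and other members with single levels were named after their values were seen. Other settings tried were quantile normalization, centred arrays, genes above the median level, averaged probe sets per gene, a robust eBayes with trend, the array set as a block, leaving out each array (which leaves 1 array in its group, assumed to vary like the others), and 1.3-fold, 2-fold or a single vehicle array for single times. Promoter windows came from RefSeq (GRCm38.p6).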

Additional observations from a re-analysis of the deposited data

Results flagged for a closer look

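For 2 genes of the lists read beside the members, the change from early to late differed between ATRA and BMS641 by the test of that difference in limma. E2f2, an E2F factor of the G1/S wave, differed by −0.96 ± 0.15 (adjusted p = 0.0367), and Utf1, an embryonal carcinoma marker, by −0.90 ± 0.16 (adjusted p = 0.0416). No mitosis and spindle gene passed this test.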

How the results depend on the processing

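Counts of called members under other settings were as follows. A count with no share of all genes beside it is not read against a background, which can move with the setting. With the array set as a block, late ATRA against vehicle had 0, early ATRA against vehicle 1, ATRA late minus early 8, late ATRA against late BMS641 0 (Aurkb 0.013 and Ccnb2 0.0043 with the sign turned), and the difference of ATRA and BMS641 in the late minus early change 2. Quantile normalization gave 1 for that difference. The block was estimated from the difference of the 2 vehicle arrays alone. Centred arrays gave 3 for ATRA late minus early, where 2.22% of all genes fell and 3.46% rose. At single times, 14 members lay 1.3-fold and 0 lay 2-fold below vehicle at ATRA 48 h, and 1 lay 2-fold below BMS641. At 1.5-fold 13 lay below vehicle replicate 2 alone, and against replicate 1 alone Ndc80 and Kif11 joined the 6 of the main setting. Leaving out single arrays gave 0 to 13 for late ATRA against vehicle, 0 to 10 for ATRA late minus early, 0 to 13 for late ATRA against late BMS641 and 0 to 3 for the difference in change. For early ATRA it gave 0 to 1, for late BMS961, BMS753 and BMS641 0 to 2, 0 to 3 and 0 to 3, and for the same compounds early 0 to 4, 0 to 2 and 0 to 3. The cause was not tested. Of 216 values for the counts of called members under other settings 190 stayed within 1.5 times, and of 210 for single called members 126 kept their call, 82 lost it and 2 turned. Centring moved every gene in late ATRA minus vehicle by −0.14, so that the member median was −0.36 and that of all genes −0.16. The gap between those medians is the same as in the main setting. The count of members lowest at ATRA 48 h was 26, 30 with centred arrays (35.9% of all genes) and 27 with averaged probe sets, alternatives chosen after seeing the data, as was the use of the 4 ATRA arrays and vehicle replicate 1 alone (31, against 39.2%). The step from 24 h to 48 h lay below all 3 BMS steps for 31 and 30 members in the first 2 of these. No paired analysis was possible because the agents and times share no replicate numbers in the labels.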
